A study of Mus musculus with 54 samples.

Results

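Tumours of castrated DKO_EE and castrated DKO_EP mice were compared gene by gene. Members were every sample whose labels give the genotype DKO_EE or DKO_EP and the treatment Cx, and they are 10 of the 54 libraries of the series: 5 DKO_EE and 5 DKO_EP animals, with 1 library an animal. The series profiled prostate tumour tissue by bulk RNA sequencing in several engineered mouse models, intact or castrated. Its design text describes both genotypes as DKO mice with Ezh2 deletions, castrated at 12 weeks and sampled at endstage. The labels used here do not spell out DKO, the alleles behind the letters EE and EP, or the promoter that drives the deletion. The DKO_EE animals were 35, 40, 59, 46 and 39 weeks old and the DKO_EP animals 35, 34, 35, 36 and 37 weeks. Castrated DKO tumours from 4 animals aged 39 to 99 weeks, with no Ezh2 deletion named, shared the statistical fit. The same genotype contrast was also available in intact endstage tumours (8 DKO_EE animals aged 28 to 42 weeks, median 33.5, and 3 DKO_EP animals aged 39 to 52 weeks, median 42) and in 12-week prostates (4 and 4 animals).

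The product of Ezh2 is the methyltransferase of Polycomb repressive complex 2 (PRC2), which methylates lysine 27 of histone H3 and keeps developmental regulator genes silent in cells of other lineages. A second complex, PRC1, binds that mark or reaches the same genes independently. In prostate cancer, loss of RB1 is associated with a switch from a luminal, androgen-dependent state to a neuroendocrine state, and EZH2 is often abundant there.

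Values are log2 of a normalized count plus 1, as deposited, and fold changes are DKO_EE minus DKO_EP on that scale, which understates changes of genes with few reads. A gene was called where limma gave an adjusted p (Benjamini-Hochberg, all fitted genes) under 0.05. Between 5261109 and 7264859 reads stood behind each of the 10 libraries, and their median correlation with the other castrated libraries was 0.901 to 0.928. DKO replicate 2 stood apart at 0.699. It enters the contrast of DKO_EE with DKO_EP only through the shared estimate of the spread, and enters values set against DKO through the DKO mean as well. Its Chga value was 3.59 against 10.14 to 10.51 in the other DKO animals, so counts that differ without it are also given. The DKO_EE animals were older by 8.4 weeks on average (43.8 ± 9.36 against 35.4 ± 1.14 weeks; SD, n = 5 each; exact two-sided permutation p = 0.0397 over 252 splits). Age therefore moved with genotype, and in the intact endstage tumours the DKO_EE animals were the younger ones.

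Ezh2 itself (chromosome 6, 47530139 to 47595341, GRCm38) was read in every tumour. Its log2 values were 8.46, 9.19, 8.02, 8.57 and 8.07 in DKO_EE and 9.28, 9.27, 8.58, 9.38 and 9.34 in DKO_EP, and 9.62, 8.43, 9.71 and 9.69 in castrated DKO. The DKO_EE values were lower on average, and the groups overlapped through the second DKO_EE and the third DKO_EP animal. The difference missed the threshold (log2 fold change -0.71, SE 0.28, adjusted p = 0.304), and its unadjusted 95% interval was -1.31 to -0.10. With array weights it did pass (-0.90, adjusted p = 0.0137). A value summed over a whole gene in bulk tissue includes undeleted exons and non-tumour cells, so it does not check a deletion directly. Rb1 was likewise read in all 10 tumours, at 8.80 to 9.21 in DKO_EE and 8.36 to 8.92 in DKO_EP. It did not pass the test (adjusted p = 0.682), nor did Trp53 (log2 fold change -0.12, SE 0.14, adjusted p = 0.879). None of the 73 genes starting within 5 Mb of Ezh2 was called with limma (4 at an unadjusted p under 0.05), nor was any in a 2 or 10 Mb window.

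Of 16558 genes, 281 were called (1.70%), 117 higher in DKO_EE (0.707%) and 164 lower (0.990%), while the median log2 fold change of all genes lay at 0.00. Most called differences were large: 96 of the higher and 137 of the lower genes exceeded 2-fold, and 48 and 56 exceeded 8-fold. The 5 DKO_EE values did not overlap the 5 DKO_EP values for 103 of the 117 and 153 of the 164, against 2.84% and 3.16% of all genes. A set of 13 higher genes was listed at 0 in every DKO_EP tumour and 6 lower genes at 0 in every DKO_EE tumour. The count rose to 811 (363 higher, 448 lower) without DKO replicate 2 and to 787 with the 10 animals alone, each holding all 281. It was 226 when age was added to those 10 animals, 138 of them among the 281. It fell to between 166 and 181 when DKO_EP replicate 1, 2 or 3 or DKO_EE replicate 3 was left out. In bulk tissue, fewer cells of a type and less RNA per cell cannot be told apart.

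Transcription factor genes that pattern the embryo and specify neurons were among the deepest losses in DKO_EE. Onecut2, a cut-homeobox factor linked to neuroendocrine prostate cancer in human tumours, had log2 values of 2.33, 2.32, 1.03, 2.21 and 1.26 in DKO_EE and 8.63, 8.85, 9.30, 9.36 and 9.12 in DKO_EP. Castrated DKO tumours had 9.40, 13.14, 9.99 and 9.03, so DKO_EE alone was low (log2 fold change -7.22, SE 0.62, adjusted p = 4.33e-05). Sim2, a bHLH-PAS factor of midline and muscle development (chromosome 16, 94084931 to 94127032), was listed at 0 in all 5 DKO_EE tumours and had 7.40, 8.52, 9.02, 8.30 and 9.23 in DKO_EP (adjusted p = 0.00292). Castrated DKO replicates 1, 3 and 4 had 9.32, 9.74 and 8.53 and replicate 2 had 1.25. By limma-voom on the recovered reads, the adjusted p-values of Onecut2 and Sim2 were 0.0541 and 0.111.

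The LIM-homeobox gene Lhx2, a regulator of forebrain, eye and hair follicle development, had 1.0, 1.0, 1.03, 0 and 0 in DKO_EE and 5.55, 5.87, 5.60, 6.15 and 5.82 in DKO_EP (adjusted p = 0.000579). That is 3 reads in all against 227, a ratio of read rates of 82.0 with a 95% counting interval of 27.7 to 401. Its relative Lhx6, needed for cortical interneurons, had 1.0, 2.0, 1.03, 1.77 and 0 in DKO_EE and 4.84, 5.19, 4.45, 6.81 and 5.68 in DKO_EP (log2 fold change -4.23, SE 0.52, adjusted p = 0.000832). Both were low in all 5 DKO_EE animals with no overlap. Sox3, a SOX factor of neural progenitors, had 1.0, 0, 3.06, 0 and 0 in DKO_EE and 7.53, 7.33, 6.86, 8.01 and 7.39 in DKO_EP (log2 fold change -6.61, SE 1.19, adjusted p = 0.0126). Nr2f1, an orphan nuclear receptor also called COUP-TFI, had 5.59, 1.59, 3.06, 2.21 and 6.47 in DKO_EE and 8.60, 9.52, 8.33, 9.89 and 8.66 in DKO_EP (log2 fold change -5.22, SE 0.96, adjusted p = 0.0139). The Nr2f1 loss was uneven among DKO_EE animals, with replicates 1 and 5 well above the rest, and it was past neither limma-voom (adjusted p = 0.103) nor the fit of the 10 animals with age. Pou4f1, a POU factor of sensory neurons, had 0, 1.59, 1.03, 0 and 0 in DKO_EE and 6.51, 8.71, 5.88, 6.13 and 5.38 in DKO_EP (adjusted p = 0.046). It rested on 3 reads against 550 (ratio 199, interval 67.7 to 967), and its adjusted p exceeded 0.05 when any 1 of the 10 animals was left out, reaching 0.126.

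**Figure D1:**
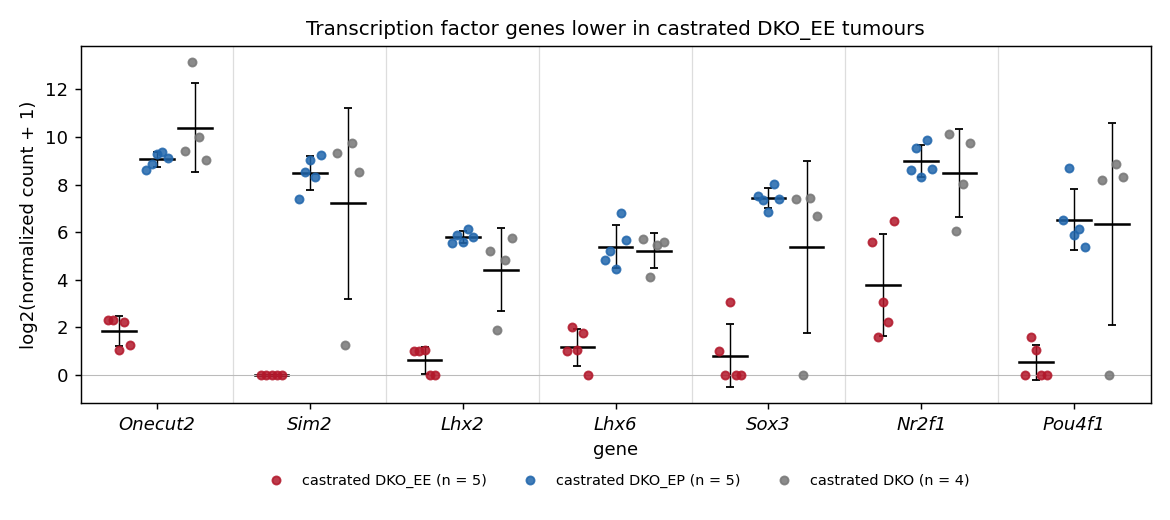
Log2(normalized count + 1) of 7 transcription factor genes called lower in castrated DKO_EE tumours, 1 point per animal, with bars at the group mean and whiskers of 1 SD. The DKO_EE points lie below the DKO_EP points for every gene shown, and 1 DKO animal, replicate 2, is low for Sim2, Lhx2, Sox3 and Pou4f1.

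The list of non-Hox developmental factors had 5 called lower and 2 called higher of 84 tested (6.0% and 2.4%, against 0.990% and 0.707% of all genes). The lower members were Sim2, Lhx2, Lhx6, Sox3 and Nr2f1. The higher members were Pax9, a paired-box factor of pharyngeal pouch and tooth development, and Olig1, an oligodendrocyte factor. Pax9 had 7.83, 4.95, 6.80, 11.86 and 6.28 in DKO_EE and 1.25, 0, 1.11, 1.72 and 3.86 in DKO_EP (log2 fold change 5.96, SE 1.30, adjusted p = 0.036), and its adjusted p exceeded 0.05 without any 1 of 8 animals, by limma-voom (0.234), with an offset of 8 (0.0576) and with age in the 14 (0.054) or the 10 animals (0.105). Olig1 was listed at 0 in every DKO_EP and DKO tumour and had 2.59, 3.59, 2.37, 5.31 and 1.92 in DKO_EE, and was not called with an offset of 8 (adjusted p = 0.104) or with age in the 10 animals (0.076). The median log2 fold change of the list was -0.36, or -0.13 with members at 0 in a whole group set to 3 reads per library, against 0.00 over all genes. Without DKO replicate 2, 9 members were lower and 3 higher. Of 35 Hox genes tested, none was called with limma (7 at an unadjusted p under 0.05), and 1 was called higher by limma-voom and without DKO replicate 2. With the 10 animals alone 2 were higher, with array weights 4 were higher and 1 lower, and with all 11 groups in one fit 1 was lower.

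A further 5 lower genes are known from liver, kidney or gut. They were put together after their values were seen, so they say nothing of those tissues as a group. Pkhd1, the gene of fibrocystin in renal and biliary ducts, had 1.59, 0, 1.03, 2.21 and 2.37 in DKO_EE and 7.88, 6.39, 6.87, 6.08 and 6.36 in DKO_EP (log2 fold change -5.28, SE 0.62, adjusted p = 0.000589). Cpn1, the catalytic subunit of the plasma enzyme carboxypeptidase N, had 0, 0, 2.37, 1.14 and 0 in DKO_EE and 9.35, 9.44, 8.44, 9.89 and 9.26 in DKO_EP (log2 fold change -8.57, SE 0.98, adjusted p = 0.000545). Neither gene's groups overlapped, and Cpn1 had an adjusted p of 0.0566 by limma-voom.

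Pklr, the liver and red cell pyruvate kinase, was listed at 0 in all DKO_EE tumours and had 5.59, 4.36, 4.91, 5.15 and 5.91 in DKO_EP (adjusted p = 5.16e-05). Hgfac, the protease that activates hepatocyte growth factor, had 1.0, 1.59, 2.37, 2.21 and 1.26 in DKO_EE and 6.61, 3.97, 6.07, 5.55 and 6.44 in DKO_EP (log2 fold change -4.04, SE 0.58, adjusted p = 0.00257). Rnf186, a RING-finger ubiquitin ligase of the colon, had 0, 2.32, 0, 1.14 and 1.26 in DKO_EE and 6.94, 5.64, 5.07, 6.59 and 5.85 in DKO_EP (log2 fold change -5.07, SE 0.65, adjusted p = 0.0011). All of these were low in every DKO_EE tumour and moderate in every DKO_EP tumour. In DKO the lowest and highest values were 6.90 to 9.99 for Pkhd1, 5.57 to 7.89 for Pklr, 5.27 to 7.80 for Hgfac and 5.18 to 8.54 for Rnf186. Cpn1 differed from DKO by -6.9 in DKO_EE and 1.67 in DKO_EP, or -8.37 and 0.20 without DKO replicate 2. Pkhd1, Cpn1, Pklr, Hgfac and Rnf186 passed the test without any 1 of the 10 animals.

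**Figure D2:**
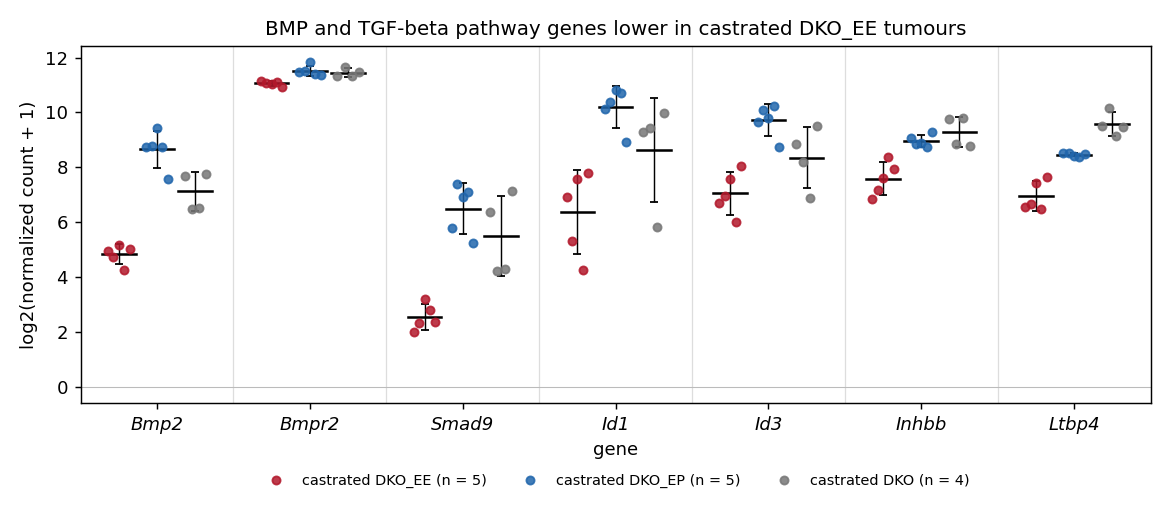
Log2(normalized count + 1) of the 7 called members of the BMP and TGF-beta pathway list, 1 point per castrated animal, with bars at the group mean and whiskers of 1 SD. DKO_EE lies below DKO_EP for Bmp2, Smad9, Id1, Id3, Inhbb, Ltbp4 and Bmpr2, with no overlap between the groups for any of the 7.

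The bone morphogenetic protein (BMP) and TGF-beta pathway was the list with the most lower members. Of 61 tested, 7 were called lower with limma (11.5%, against 0.990% of all genes) and 0 higher. The list does not hold Nodal and Lefty1, which are given under other observations. The pathway runs from secreted ligands through type I and II receptors to SMAD proteins, and the ID proteins are among its target genes. The ligand gene Bmp2 (chromosome 2, 133552159 to 133562885) had 4.96, 4.76, 5.19, 4.25 and 5.05 in DKO_EE, 8.75, 8.78, 9.43, 8.75 and 7.59 in DKO_EP and 7.69, 6.50, 6.54 and 7.77 in DKO. Every DKO_EE tumour was below every other castrated tumour (log2 fold change -3.82, SE 0.35, adjusted p = 7.91e-05). The type II receptor gene Bmpr2 differed little, at 10.91 to 11.13 in DKO_EE and 11.36 to 11.83 in DKO_EP (log2 fold change -0.46, SE 0.11, adjusted p = 0.0495). The signal transducer Smad9 had 2.01, 2.32, 3.23, 2.81 and 2.37 in DKO_EE and 5.78, 7.41, 6.94, 7.09 and 5.24 in DKO_EP (log2 fold change -3.94, SE 0.60, adjusted p = 0.00437).

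Among targets, Id1, a helix-loop-helix inhibitor of differentiation factors, had 6.94, 5.32, 7.59, 4.25 and 7.78 in DKO_EE and 10.13, 10.38, 10.81, 10.69 and 8.91 in DKO_EP (log2 fold change -3.81, SE 0.82, adjusted p = 0.0329). Its relative Id3 had 6.71, 6.95, 7.57, 6.02 and 8.05 in DKO_EE and 9.64, 10.10, 9.81, 10.25 and 8.76 in DKO_EP (log2 fold change -2.65, SE 0.48, adjusted p = 0.0126). For both, the highest DKO_EE animal, replicate 5, lay below the lowest DKO_EP animal, also numbered 5 by order of accession. Castrated DKO lay between the groups in both genes. Id1 differed from DKO by -2.25 in DKO_EE and 1.55 in DKO_EP, and Id3 by -1.30 and 1.35, none passing the limma test. Against DKO, Bmp2, Smad9, Inhbb and Ltbp4 were called lower in DKO_EE, and Bmpr2 was not (adjusted p = 0.0503). Inhbb, the activin beta B subunit, was at 6.87 to 8.36 in DKO_EE and 8.75 to 9.31 in DKO_EP (log2 fold change -1.38, SE 0.28, adjusted p = 0.0251). Ltbp4, which tethers latent TGF-beta to the matrix, was at 6.50 to 7.67 and 8.39 to 8.52 (log2 fold change -1.50, SE 0.24, adjusted p = 0.00597), and its adjusted p was 0.256 with all 11 groups in one fit. The list's median log2 fold change was -0.44, or -0.38 with members at 0 in a group set to 3 reads per library, and 41 of 61 members were below 0. Without DKO replicate 2, 12 members were lower and 0 higher. By limma-voom 6 members were lower, and without 1 of the 10 animals 4 to 6 were. Id1 and Bmpr2 were not called when age was added to the 10 animals, where 6 members were lower. Without any 1 of 7 animals the adjusted p of Id1 and of Inhbb exceeded 0.05, and so did that of Bmpr2 without any 1 of the 10. Fibroblast and matrix genes had 24 of 26 members below 0 (median -0.90), none called with limma or limma-voom and 11 at an unadjusted p under 0.05. Their summed level was 0.135 to 0.325% of reads in DKO_EE and 0.199 to 0.608% in DKO_EP. Endothelial genes, with 13 of 16 members below 0, made up 0.112 to 0.315% and 0.079 to 0.124% of reads. Their part in the result was not tested.

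Other genes with large losses were Akr1c19, Grpr, Dpp10, Gad2, Car4 and Ifitm1. Akr1c19, an aldo-keto reductase of a clustered gene family (chromosome 13, 4228700 to 4252843), had 1.0, 1.59, 0, 0 and 0 in DKO_EE, 9.59, 9.23, 9.24, 9.41 and 9.62 in DKO_EP and 9.58, 7.20, 9.78 and 9.15 in DKO. It came to 3 reads against 2795, a ratio of 1010 with a 95% counting interval of 345 to 4901 (adjusted p = 1.94e-07), and reads shared with its paralogues make the level uncertain. Grpr, the receptor of gastrin-releasing peptide, had 0, 1.0, 0, 0 and 0 in DKO_EE and 8.63, 8.93, 7.89, 7.58 and 7.20 in DKO_EP, or 1 read against 1174 (ratio 1273, interval 228 to 50316, adjusted p = 0.000335). Both kept the call under every setting. Dpp10, an auxiliary subunit of Kv4 potassium channels, had 0, 1.59, 2.05, 3.24 and 1.92 in DKO_EE and 10.22, 10.68, 10.19, 9.61 and 11.35 in DKO_EP (log2 fold change -8.65, SE 1.54, adjusted p = 0.011). Gad2, which makes the transmitter GABA, had 3.71, 5.17, 3.64, 4.84 and 4.85 and 9.19, 10.20, 11.02, 11.33 and 9.93 (log2 fold change -5.89, SE 1.04, adjusted p = 0.0108). Car4, a membrane-anchored carbonic anhydrase, was at 1.0 to 4.15 and 5.98 to 9.99 (log2 fold change -5.16, SE 0.89, adjusted p = 0.00899). Ifitm1, an interferon-inducible membrane protein, was at 4.15 to 4.84 and 11.05 to 12.31 (log2 fold change -7.20, SE 0.84, adjusted p = 0.000588). No DKO_EE tumour reached the lowest DKO_EP tumour in any of these. By limma-voom the adjusted p-values were 0.372 for Dpp10, 0.176 for Gad2, 0.18 for Car4 and 0.0548 for Ifitm1. Its paralogue Ifitm2, named after its values were seen, was also lower, at 8.35 to 8.91 and 9.56 to 10.04 (log2 fold change -1.14, SE 0.14, adjusted p = 0.00103), and was called under every setting. None of the 46 type I interferon response genes was called under any setting or at an unadjusted p under 0.05.

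Genes higher in DKO_EE included ion channel, guidance and regulator genes, whose DKO_EP levels ranged from near 0 to moderate. Fign, the microtubule-severing ATPase fidgetin (chromosome 2, 63971507 to 64098038), had 8.28, 8.67, 8.56, 8.05 and 7.81 in DKO_EE, 2.37, 2.56, 1.11, 2.75 and 2.23 in DKO_EP and 4.01, 4.69, 2.41 and 4.39 in DKO (log2 fold change 6.07, SE 0.44, adjusted p = 8.54e-06). Slc24a4, a potassium-dependent sodium and calcium exchanger, had 7.68, 9.28, 8.75, 9.41 and 8.74 in DKO_EE and 2.37, 1.15, 2.50, 4.28 and 2.56 in DKO_EP (log2 fold change 6.20, SE 0.54, adjusted p = 4.93e-05). Kcnh5, the voltage-gated potassium channel EAG2, had 10.32, 9.46, 9.19, 10.55 and 8.47 and 1.91, 5.28, 4.37, 4.58 and 1.16 (log2 fold change 6.13, SE 0.99, adjusted p = 0.00648). In each case all 5 DKO_EE tumours were higher than all DKO_EP and DKO tumours. Zfhx4, a zinc-finger homeobox factor, had 7.55, 8.63, 9.69, 9.61 and 9.56 in DKO_EE and 5.04, 4.18, 2.50, 4.58 and 3.44 in DKO_EP (log2 fold change 5.06, SE 0.55, adjusted p = 0.000335). Ntn1, the guidance ligand netrin-1, had 8.11, 9.37, 11.01, 10.21 and 10.71 and 4.70, 4.80, 5.12, 4.95 and 5.72 (log2 fold change 4.83, SE 0.59, adjusted p = 0.000832). Rora, a nuclear receptor of the circadian and metabolic programs, was readily detected in both groups, at 9.37 to 9.71 and 7.19 to 7.89 (log2 fold change 2.11, SE 0.24, adjusted p = 0.000469). These 6 genes passed under every setting tried.

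**Figure D3:**
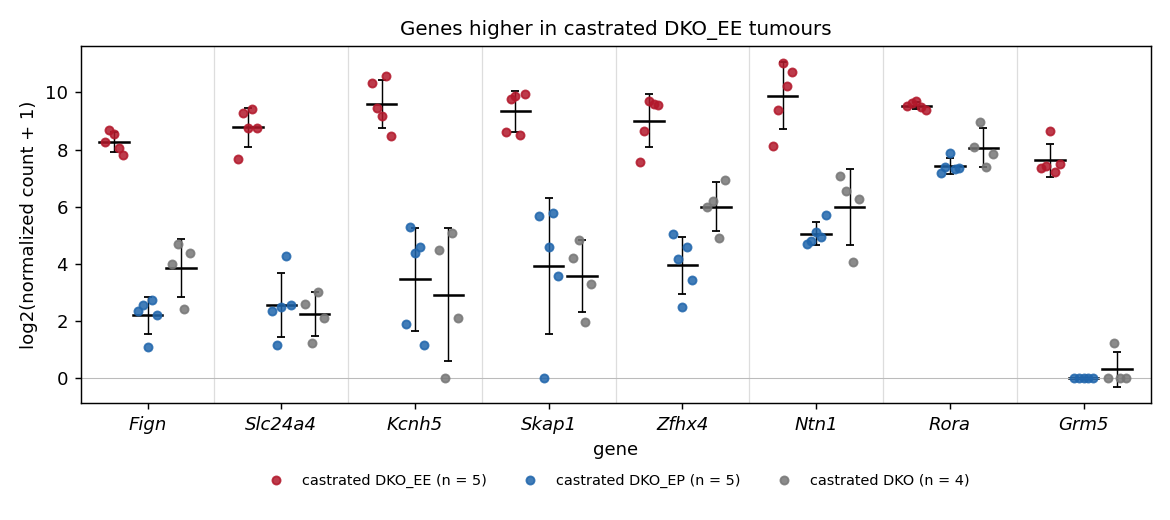
Log2(normalized count + 1) of 8 genes called higher in castrated DKO_EE tumours, 1 point per animal, with bars at the group mean and whiskers of 1 SD. Grm5 lies at 0 in all 5 DKO_EP animals, and no DKO_EP point reaches a DKO_EE point for any gene shown.

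Skap1, an adaptor protein best known in T cells, had 8.62, 9.78, 9.87, 8.51 and 9.94 in DKO_EE and 5.67, 0, 4.60, 5.78 and 3.59 in DKO_EP (log2 fold change 5.42, SE 0.94, adjusted p = 0.0101), and was not called when age was added to the 10 animals (0.075). None of 24 T and NK cell genes was called with limma or limma-voom (2 at an unadjusted p under 0.05), and Cd3e was at 0 to 3.23 in DKO_EE and 0 to 1.78 in DKO_EP. Tenm3, an adhesion receptor of the teneurin family, had 10.22, 9.20, 9.97, 8.04 and 10.33 and 2.71, 3.97, 7.59, 3.99 and 3.07 (log2 fold change 5.29, SE 1.02, adjusted p = 0.0182), with DKO_EP replicate 3 apart from the other DKO_EP animals. Mylk4, a myosin light chain kinase, was at 8.71 to 10.45 in DKO_EE and 4.35 to 7.46 in DKO_EP (adjusted p = 0.0304). Skeletal muscle genes had no member called under any setting (2 of 17 at an unadjusted p under 0.05). They took 0.00188 to 0.00855% of reads in DKO_EE and 0.00298 to 0.237% in DKO_EP. The highest share was that of DKO_EP replicate 3, where the list member Ttn alone took 0.236%. In the other DKO_EP animals Ttn took 0.0016 to 0.0208%. The creatine kinase Ckm was listed at 0 in all DKO_EP tumours and reached 1.14 in DKO_EE. Ces1d, a carboxylesterase in a cluster of close paralogues, was at 5.56 to 8.76 and 1.15 to 3.90 (adjusted p = 0.046) and failed limma-voom at 0.193. Leaving out 1 animal lifted the adjusted p over 0.05 for Mylk4 in 8 of 10 cases, for Ces1d in 9 and for Tenm3 in 2 (DKO_EP replicates 1 and 2).

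Of 125 potassium, calcium and sodium channel genes, 4 were called higher and 2 lower (3.2% and 1.6%, against 0.707% and 0.990% of all genes). The higher ones were Kcnh5, the calcium channel genes Cacna1d and Cacna1e, and Kcnk1, a leak potassium channel. Cacna1d had 8.62, 10.53, 10.81, 11.88 and 10.41 in DKO_EE and 4.98, 6.93, 5.34, 8.21 and 5.58 in DKO_EP (log2 fold change 4.24, SE 0.67, adjusted p = 0.00562; 0.0617 when age was added to the 10 animals). Cacna1e was at 3.83 to 9.35 and 1.15 to 3.07 (log2 fold change 4.72, SE 0.97, adjusted p = 0.0251) and Kcnk1 at 10.86 to 12.14 and 10.01 to 10.97 (log2 fold change 1.14, SE 0.27, adjusted p = 0.0481). The lower ones were Dpp10 and the inward rectifier Kcnj2 (log2 fold change -2.38, SE 0.37, adjusted p = 0.00562). The list's median was 0.13, or 0.00 with groups at 0 set to 3 reads per library, and without DKO replicate 2 the counts were 6 higher and 10 lower. Cacna1e was lost without any 1 of 6 animals and Kcnk1 without any 1 of 8, and both failed limma-voom, at 0.183 and 0.0548.

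Of 73 axon guidance genes, 2 were called higher and 3 lower (2.7% and 4.1%, against 0.707% and 0.990% of all genes), or 3 and 6 without DKO replicate 2. The higher genes were Ntn1 and the ephrin receptor gene Epha5, which had 6.24, 8.31, 7.23, 5.94 and 5.68 in DKO_EE, 2.37, 2.22, 1.11, 1.10 and 1.16 in DKO_EP and 0 in every DKO tumour (log2 fold change 5.09, SE 0.49, adjusted p = 0.000127). The lower genes were the semaphorin Sema4a (log2 fold change -4.27, SE 0.53, adjusted p = 0.000832), the netrin receptor gene Unc5b (log2 fold change -0.83, SE 0.16, adjusted p = 0.0158) and the ephrin receptor gene Ephb3 (log2 fold change -0.84, SE 0.19, adjusted p = 0.0428). With all 11 groups in one fit Unc5b and Ephb3 were not called (adjusted p = 0.437 and 0.0996), and Ephb3 also failed limma-voom (0.0524). Among 52 Wnt pathway genes, 2 were higher (3.8%, against 0.707% of all genes) and 0 lower, the higher ones both membrane-level or secreted modulators. The list as a whole leaned the other way. Its median log2 fold change was -0.37, with 31 of 52 members below 0 and 15 at an unadjusted p under 0.05 in either direction. Sfrp5, a secreted Wnt inhibitor, had 8.99, 9.79, 9.02, 8.06 and 9.44 in DKO_EE and 3.59, 3.06, 1.73, 3.77 and 6.58 in DKO_EP (log2 fold change 5.31, SE 1.02, adjusted p = 0.0176). Lgr5, the R-spondin receptor that marks stem cells of the gut, had 8.32, 3.70, 4.31, 5.99 and 6.36 and 0, 1.78, 0, 0 and 3.86 (log2 fold change 4.61, SE 1.01, adjusted p = 0.0378). Lgr5 was lost without any 1 of 8 animals, by limma-voom, with an offset of 8 and with age as a covariate. Ephb3 was lost without any 1 of 8 animals too, and Sfrp5 without DKO_EP replicate 2 or 3. No Wnt gene was called without DKO_EP replicate 2 or without DKO_EP replicate 3. Without DKO replicate 2, 3 Wnt genes were higher and 2 lower.

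Of 30 imprinted genes, 2 were higher in DKO_EE (6.7%, against 0.707% of all genes). Nnat, the proteolipid neuronatin, had 9.46, 9.22, 8.22, 8.97 and 8.48 in DKO_EE and 6.24, 5.53, 4.85, 4.89 and 3.98 in DKO_EP (log2 fold change 3.77, SE 0.54, adjusted p = 0.00257). Sgce, epsilon-sarcoglycan, had 8.22, 8.72, 7.68, 8.13 and 8.33 and 4.98, 3.59, 7.87, 2.98 and 3.59 (log2 fold change 3.62, SE 0.81, adjusted p = 0.0408), with DKO_EP replicate 3 inside the DKO_EE range, and was lost without any 1 of 9 animals. Nnat failed with all 11 groups in one fit (adjusted p = 0.14). Without DKO replicate 2, 4 imprinted genes were higher and 3 lower.

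A further 3 gains outside the naming rule were chosen after their values were seen, for their near absence in DKO_EP. Grm5, a metabotropic glutamate receptor (chromosome 7, 87584168 to 88134907), was listed at 0 in all 5 DKO_EP tumours and had 7.37, 7.41, 8.64, 7.20 and 7.51 in DKO_EE (adjusted p = 8.13e-08). Mybpc1, a myosin-binding protein, was also listed at 0 in every DKO_EP tumour and had 6.90, 5.76, 6.66, 4.34 and 8.80 in DKO_EE (adjusted p = 0.000128). Rimklb, which ligates glutamate to N-acetylaspartate, had 7.75, 8.21, 7.27, 8.19 and 6.12 in DKO_EE and 1.25, 0, 1.11, 1.10 and 0 in DKO_EP, or 947 reads against 3 (ratio 291, interval 99.3 to 1414, adjusted p = 8.54e-06). The DKO tumours lay with DKO_EP in all 3 genes, at 0 to 1.25, 0 to 1.17 and 0 to 1.81.

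The gained genes Fign and Rimklb start in stretches dense in CpG, the dinucleotide that marks many PRC2-bound promoters in mammals. Their 250 bases before the RefSeq start on GRCm38.p6 are shown for that reason, with CG in capitals: Fign at chr2:64098039-64098288 (minus strand) and Rimklb at chr6:122486306-122486555 (minus strand).
Fign: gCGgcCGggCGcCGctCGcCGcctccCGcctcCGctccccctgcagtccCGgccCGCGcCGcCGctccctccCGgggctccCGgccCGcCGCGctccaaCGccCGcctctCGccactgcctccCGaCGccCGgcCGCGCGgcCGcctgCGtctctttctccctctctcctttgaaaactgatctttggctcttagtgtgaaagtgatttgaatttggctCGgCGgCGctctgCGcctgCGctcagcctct
Rimklb: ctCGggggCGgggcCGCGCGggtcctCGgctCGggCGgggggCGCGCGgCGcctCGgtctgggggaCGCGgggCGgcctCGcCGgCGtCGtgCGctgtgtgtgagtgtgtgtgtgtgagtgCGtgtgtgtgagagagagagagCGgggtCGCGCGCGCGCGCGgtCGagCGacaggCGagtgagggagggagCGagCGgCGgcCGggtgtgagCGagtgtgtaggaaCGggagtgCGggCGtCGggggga
The window held 34 CG in Fign and 42 in Rimklb. The median was 15 over all fitted genes with an entry, 15 over the higher and 13 over the lower genes. Where a gene had several RefSeq entries, the one with the most CG was used, for these sequences and for the medians. The 2 genes shown are thus not typical of the higher genes, of which 90 had an entry. Binding and histone marks were not analysed here.

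The neuroendocrine program was present in both groups. Chga, the granule protein chromogranin A, was at 10.39 to 11.56 in DKO_EE and 10.21 to 11.15 in DKO_EP, and the synaptic vesicle gene Syp at 8.99 to 10.03 and 8.68 to 10.19. The factors Insm1 and Foxa2 were at 9.99 to 11.76 and 9.73 to 10.97 in DKO_EE and 10.76 to 11.55 and 10.15 to 11.09 in DKO_EP. The groups overlapped in all 4 genes, and none passed the test. In the main fit the unadjusted 95% intervals of the difference were wide. They were -2.08 to 2.39 for Chga, -2.61 to 2.46 for Syp, -3.12 to 3.05 for Insm1 and -1.85 to 1.85 for Foxa2. Leaving out DKO replicate 2, chosen after seeing the data, narrowed them. They were then -0.34 to 0.65 for Chga, -0.62 to 0.48 for Syp, -0.69 to 0.62 for Insm1 and -0.47 to 0.47 for Foxa2. Over the 32 neuroendocrine and neural factors, Onecut2 and Pou4f1 were lower with limma (2 genes, 6.2%, against 0.990% of all genes) and 0 were higher. Without DKO replicate 2, 4 were lower and 2 higher, and by limma-voom none was called. Among 38 granule and synaptic vesicle genes, 1 was lower (2.6%, against 0.990% of all genes), and 6 were lower without DKO replicate 2. The lower gene was Cpe, of a prohormone-processing enzyme (log2 fold change -1.17, SE 0.25, adjusted p = 0.0319). Cpe was lost without any 1 of 9 animals.

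**Figure D4:**
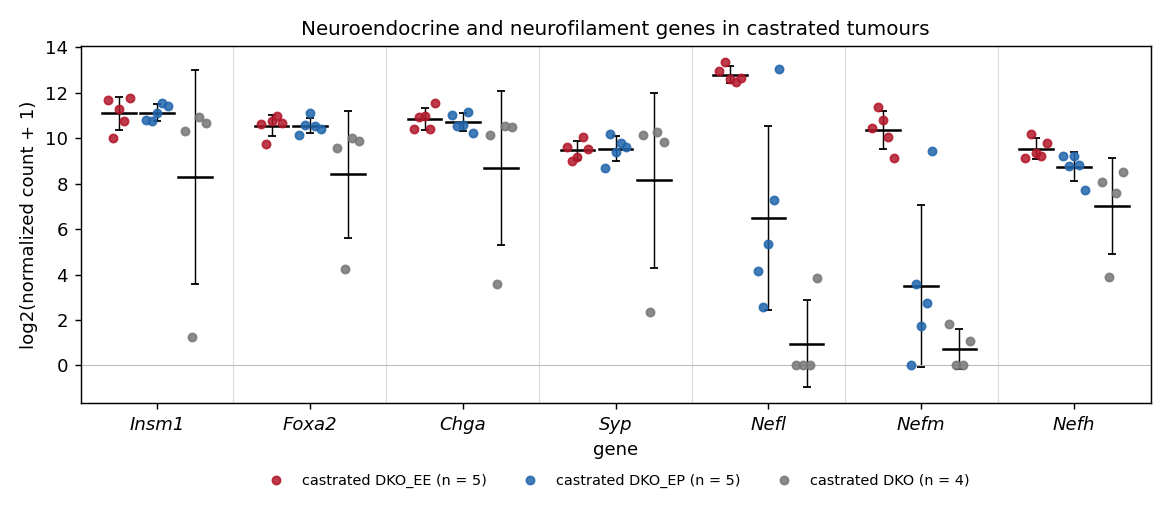
Log2(normalized count + 1) of neuroendocrine and neurofilament genes in castrated tumours, 1 point per animal, with bars at the group mean and whiskers of 1 SD. Insm1, Foxa2, Chga and Syp overlap between DKO_EE and DKO_EP and are low in 1 DKO animal, whereas Nefl and Nefm are high in all 5 DKO_EE animals and in 1 DKO_EP animal.

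Of 12 neurofilament and filament genes, 1 was called higher on that shared background, Nefm (8.3%, against 0.707% of all genes), and 0 lower. Nefl, the light chain, had 12.96, 13.34, 12.58, 12.45 and 12.66 in DKO_EE, 4.14, 2.56, 5.34, 7.29 and 13.02 in DKO_EP and 0, 0, 0 and 3.84 in DKO. Nefm, the medium chain, had 10.46, 11.38, 10.81, 10.05 and 9.13 in DKO_EE, 0, 3.59, 1.73, 2.75 and 9.43 in DKO_EP and 1.81, 0, 0 and 1.08 in DKO. DKO_EP replicate 5 reached the DKO_EE level in both genes, and DKO_EP replicates 1 to 4 stayed below it. Nefm was called (log2 fold change 6.87, SE 1.31, adjusted p = 0.0169) and Nefl was not (log2 fold change 6.33, SE 1.52, adjusted p = 0.056), although Nefl passed without DKO replicate 2 (0.0298). Nefm was lost without DKO_EP replicate 3 (0.0531) and when age was added to the 10 animals (0.118). The annotated spans of Nefl and Nefm overlap on opposite strands, and whether counting used strand is not given in the sources used here, so shared reads are possible. The heavy chain Nefh was at 9.14 to 10.20 and 7.70 to 9.23 (log2 fold change 0.80, SE 0.69, adjusted p = 0.778). Another neural gene, the protocadherin Pcdh10, was at 10.28 to 11.01 in all DKO_EE tumours and spread over 2.71 to 10.60 in DKO_EP, without passing (log2 fold change 3.47, SE 1.15, adjusted p = 0.185). Chn1, a neuronal Rac regulator, was at 8.19 to 8.89 and 5.42 to 7.46 (log2 fold change 2.11, SE 0.61, adjusted p = 0.116).

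Of 26 androgen response genes and 26 luminal genes, 0 and 0 were called with limma (6 and 4 at an unadjusted p under 0.05) or limma-voom. Leaving out DKO replicate 2 gave 2 androgen genes higher and 1 lower, and 1 luminal gene lower. Probasin, Pbsn, was listed at 0 in all 14 castrated tumours, and Hoxb13 was at 0 to 1.26 and 0 to 4.53. Krt8, the luminal keratin, was high throughout, at 12.43 to 13.22 and 12.86 to 13.38, as were Epcam and Cdh1, at 11.91 to 12.56 and 12.36 to 13.05 in DKO_EE and 12.32 to 12.47 and 12.14 to 12.73 in DKO_EP. The proliferation marker Mki67 was at 13.76 to 14.29 and 13.60 to 14.05 (log2 fold change 0.23, SE 0.47, adjusted p = 0.951), and none of 30 mitosis and 35 replication genes was called under any setting (0 and 2 at an unadjusted p under 0.05).

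Of 14 PRC2 and demethylase genes none was called with limma or limma-voom (3 at an unadjusted p under 0.05), and 1 was lower without DKO replicate 2. Of 20 PRC1 genes 1 was lower (5.0%, against 0.990% of all genes): Rybp, a subunit of the variant PRC1 complexes. Rybp had 8.23, 8.12, 8.24, 7.81 and 8.32 in DKO_EE and 9.45, 9.40, 9.44, 9.64 and 9.87 in DKO_EP, a small and even shift with no overlap (log2 fold change -1.41, SE 0.24, adjusted p = 0.00798), and its call held under every setting. Among 20 factors of epithelial-mesenchymal transition, 2 were lower and 0 higher, where 0.990% of all genes were called lower. The list's median log2 fold change was -0.66, with 16 of 20 members below 0 and 7 at an unadjusted p under 0.05. Fibronectin, Fn1, had 11.39, 11.70, 12.06, 12.15 and 11.49 in DKO_EE and 13.53, 12.95, 14.14, 13.22 and 14.23 in DKO_EP (log2 fold change -1.85, SE 0.32, adjusted p = 0.0101), and the mesenchymal cadherin Cdh11 was at 6.71 to 7.97 and 8.14 to 10.05 (log2 fold change -1.81, SE 0.38, adjusted p = 0.0287). Cdh11 was lost without any 1 of 7 animals. Vim, encoding vimentin, overlapped (log2 fold change -0.54, SE 0.46, adjusted p = 0.77). Fibroblast and matrix genes ranged lower in DKO_EE as given above, and their part in the Fn1 and Cdh11 values was not tested.

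Lists of other cell types gave few calls. Over all genes, 0.990% were called lower and 0.707% higher. No member of the smooth muscle, endothelial, erythroid, macrophage, neutrophil, B cell, class I or class II presentation lists was called under any setting, and 2 of their members had an unadjusted p under 0.05. Dst and Dclk1 were the called members of the basal and tuft cell lists, of 24 and 15 genes, both lower (log2 fold change -1.46, SE 0.25, adjusted p = 0.00899; log2 fold change -1.69, SE 0.34, adjusted p = 0.024). Cldn6, a fetal claudin listed as a surface target, had 6.03, 5.29, 0, 6.62 and 6.90 in DKO_EE and 1.25, 0, 0, 0 and 0 in DKO_EP, high in 4 of 5 DKO_EE tumours and at 0 in the third (adjusted p = 0.0347). Leaving out 1 animal ended the call of Cldn6 in 9 of 10 cases and of Dclk1 in 6. Adipocyte genes and cell cycle inhibitors had no member called with limma (2 of 16 and 4 of 21 at an unadjusted p under 0.05), whereas without DKO replicate 2 there were 1 adipocyte gene higher and 2 inhibitors lower. The Notch list of 25 genes, the cadherin list of 91 and the secretory list of 14 had 1 lower member each, Maml3, Cdh11 and Mgat4c. The Notch list had 1 higher and 3 lower and the cadherin list 3 higher and 5 lower without DKO replicate 2. Seminal vesicle proteins Svs2, Svs4 and Svs5 were listed at 0 in all 5 DKO_EE tumours and in 4 of 5 DKO_EP tumours.

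The same genotypes were compared in intact endstage tumours, where 271 of 16640 genes were called (1.63%), 164 higher (0.986%) and 107 lower (0.643%). No animal is shared between the castrated and intact contrasts. Of the 281 genes called in castrated tumours, 262 had the same sign in intact tumours (93.2%, against 60.8% of 16312 genes fitted in both). A total of 53 were called the same way in both, 25 higher and 28 lower, and 0 the opposite way with limma. That is 18.9% of the castrated and 19.6% of the intact calls. The median log2 fold change of the higher genes was 2.60 in castrated and 1.37 in intact tumours, and that of the lower genes -2.39 and -1.12. With groups at 0 set to 3 reads per library the castrated medians were 2.42 and -2.39. The mitochondrial leucyl-tRNA synthetase gene Lars2 moved with the intact contrast. It took 14.2 to 21.6% of reads in 5 of 5 DKO_EP libraries and over 10% in 5 of 12 DKO_EE libraries, against at most 0.0048% in the castrated libraries compared here, and its part in the intact calls was not tested. The intact count was 16 with age as a covariate, 47 without DKO_EP replicate 3, 91 to 175 without DKO_EP replicate 1 or 2 or DKO_EE replicate 5, and 602 and 496 without DKO_EE replicates 3 and 4.

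Genes called in both settings included Onecut2 (-5.57 intact, adjusted p = 0.00915), Lhx2 (-4.50, 0.000342), Pou4f1, Sim2, Dpp10, Car4, Kcnj2, Ephb3 and Rybp among the lower. Tenm4, a teneurin, and Nfix, a nuclear factor I gene, were named after their values were seen, with castrated and intact changes of -2.16 and -2.15 for Tenm4 and -2.10 and -2.17 for Nfix. Higher in both were Fign (5.41 intact, 4.78e-06), Skap1 (6.79, 0.00305), Kcnh5, Zfhx4, Cacna1d, Rora, Sgce, Grm5, Rimklb and Mybpc1. Akr1c19 and Bmp2 were past the test in castrated tumours and not in intact ones, where their changes were -4.55 (adjusted p = 0.193) and -1.59 (0.459). The difference between settings did not pass for them, with adjusted p-values of 1 and 1. Nnat had opposite signs, 3.77 castrated and -1.96 intact, and its difference did not pass either (1). Over all 16772 genes, 1 passed the test of castrated against intact, the predicted gene Gm4737 (0.00596%), while 773 had an unadjusted p under 0.05.

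**Figure D5:**
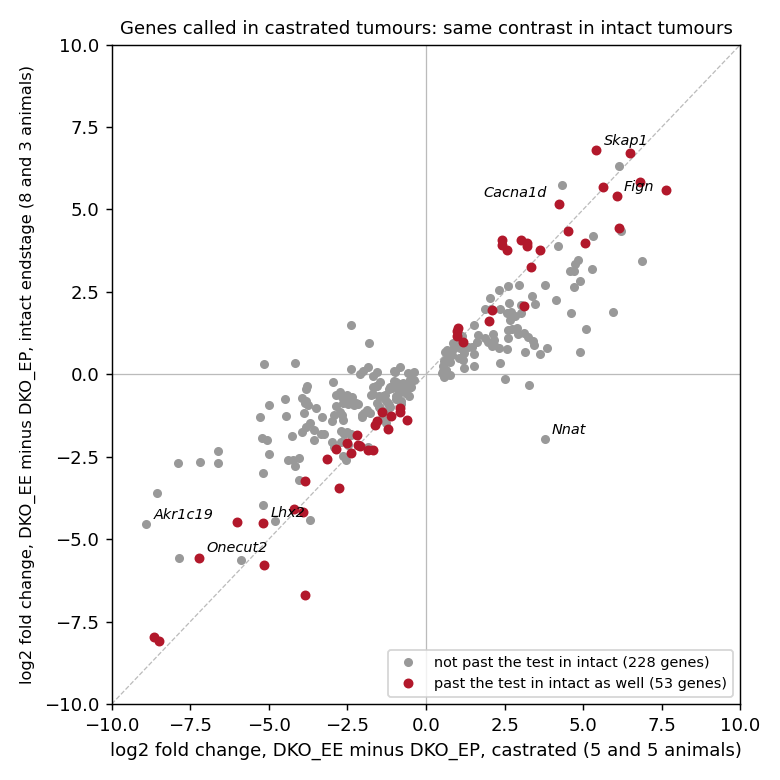
Log2 fold change of DKO_EE minus DKO_EP in castrated tumours (horizontal) and intact endstage tumours (vertical) for the 281 genes called in castrated tumours. Red marks the 53 genes called in both, and the dashed line marks equal change. The changes have the same sign in both settings for 262 of the 281 genes, and fitted changes of genes at 0 in a whole group are not bounds.

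At 12 weeks, before castration, no gene of 16626 was called between DKO_EE and DKO_EP with limma (0%), and 593 had an unadjusted p under 0.05. Of the 274 castrated calls fitted there, 132 had the same sign (48.2%, against 49.6% of all genes). Medians were 0.01 for the genes higher and 0.02 for the genes lower at castrated endstage. Onecut2 differed by -0.02, Fign by 0.12 and Bmp2 by -0.15 at that age. These are values at 4 animals a side, and the difference from the castrated contrast was not tested.

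Set beside castrated DKO in the same fit, DKO_EE had 1278 genes called (7.72%), with 566 higher (3.42%) and 712 lower (4.30%), and DKO_EP had 5 (0.0302%), with 3 higher (0.0181%) and 2 lower (0.0121%). The counts were 1443 and 15 without DKO replicate 2, and without each other DKO animal 783 (replicate 1), 1796 (replicate 3) and 974 (replicate 4) for DKO_EE and 10, 67 and 9 for DKO_EP. The comparisons share the DKO animals. The DKO mean was nearer to DKO_EP than to DKO_EE for 105 of the 117 higher and 146 of the 164 lower genes, or 109 and 146 without DKO replicate 2. These genes were picked by the contrast of DKO_EE with DKO_EP. The same count over all genes was not made, so it does not measure how alike DKO and DKO_EP are. For Onecut2 the difference from DKO was -8.56 in DKO_EE and -1.34 in DKO_EP, or -7.64 and -0.42 without DKO replicate 2, and for Fign 4.40 and -1.67. For Bmp2 the values were -2.28 and 1.53. Nefl differed from DKO by 11.84 (adjusted p = 0.00126) in DKO_EE and 5.51 (0.195) in DKO_EP.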

How the data were processed

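Bulk RNA-seq of mouse prostate tumours was used. Per the labels' protocols, the miRNeasy Mini Kit gave total RNA, and ribosomal RNA was depleted with RiboErase before library preparation (RNA HyperPrep Kit). The submitters' processing notes name STAR, RSEM, FastQC, DESeq2 and limma, and the builds mm10 and GRCm38; roles and versions are not given in the sources used here. The table deposited by the authors holds log2 values, each the log2 of 1 plus a normalized count, for 16772 genes. Its 56 columns include 2 that could be tied to no sample and are not used here. Undoing the logarithm gave whole multiples of a library's smallest step (100% of values, tolerance 0.05 reads), so reads were recovered; 10.2% of the values of the 10 libraries were at 0.

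Differences were fitted with limma 3.58.1 (R 4.3.3; lmFit, contrasts.fit, eBayes with trend) over the 14 castrated animals, with Benjamini-Hochberg adjustment over all genes with any spread. Pieces of one intact animal were averaged. The contrast between settings used all 48 animals in 11 groups. Limma-voom used recovered reads with trimmed-mean scaling. Ages were compared by an exact permutation test. Read-rate ratios carry exact binomial intervals that cover counting error only. Positions are from GENCODE M21 (GRCm38). The fits were tested on simulated data. Each animal is 1 replicate; numbers follow accession order and pair nothing.

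Named genes were the 15 largest called changes each way (without unnamed models, receptor segments and the lowest 25% by mean), up to 4 called members of each of 37 lists that is described, and a set of fixed genes; others are marked, and some genes the rule names are not reported here. The comparison, lists and rules were chosen with earlier results of these data known.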

Additional observations from a re-analysis of the deposited data

Results flagged for a closer look

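For 84 genes named here, each castrated group of 5 was screened for an animal whose gap to its nearest neighbour exceeded 0.71 of the group's range, and 12 of 161 pairs of gene and group had one. Chance flags about 1 in 20. Among expressed genes, Ezh2 was low in DKO_EP replicate 3 (8.58; next lowest 9.27) and Foxa2 was low in DKO_EE replicate 2 (9.73; next 10.62). DKO_EP replicate 3 was also high for Rora (7.89; next 7.38) and Tenm3 (7.59; next 3.99). Grm5 was high in DKO_EE replicate 3 (8.64; next 7.51), Tenm4 in DKO_EE replicate 4 (10.18; next 9.52) and Gm4737 in DKO_EP replicate 4 (6.55; next 6.02). Cldn6 was at 0 in DKO_EE replicate 3, against 5.29 to 6.90 in the other DKO_EE animals.

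Other marked animals held the few reads of a gene at 0 in the rest of their group: Hoxb13 in DKO_EE replicate 5 (1.26), Grpr in DKO_EE replicate 2 (1.0), Gli1 in DKO_EE replicate 4 (1.77), and Cldn6 in DKO_EP replicate 1 (1.25).

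The predicted gene Gm4737 was the gene whose genotype difference itself differed between castrated and intact endstage tumours (-5.48, SE 0.84, adjusted p = 0.00159). Its castrated log2 values were 0, 1.0, 1.63, 0 and 1.92 in DKO_EE, 6.02, 6.01, 5.85, 6.55 and 5.94 in DKO_EP and 1.17, 6.10, 1.28 and 5.90 in DKO, and the intact means were 7.39 ± 0.47 (SD, n = 8) in DKO_EE and 7.08 ± 0.24 (SD, n = 3) in DKO_EP. The castrated DKO animals held both high and low values.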

How the results depend on the processing

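Of the 281 genes called between castrated DKO_EE and DKO_EP, 0 changed sign under any of 21 alternatives, 61 were called under all of them and 136 without any 1 of the 10 animals. The count was 787 with those 10 animals alone, 1079 with array weights and 811 without DKO replicate 2 (the last chosen after seeing the data), and each held all 281. It was 218 by limma-voom (209 shared), 216 without the lowest 25% of genes, and 166 to 248 without 1 animal. The intact count was 271, and became 1430 with array weights, 16 with age, and 47 to 602 without 1 animal. The castrated against intact count was 1 and became 2 with array weights. Set against castrated DKO, the counts of 1278 (DKO_EE) and 5 (DKO_EP) ranged over 783 to 1796 and 9 to 67 without 1 DKO animal (chosen after seeing the data). Ezh2 passed with array weights (-0.90, adjusted p = 0.0137) and ranged from -0.89 to -0.60 without 1 animal. Among named genes, adding age to the 10 animals also ended the calls of Cacna1e, Ces1d, Lgr5, Ephb3, Kcnk1, Sgce, Cdh11, Cpe, Dclk1 and Dst, and all 11 groups in one fit those of Mylk4, Kcnk1, Fn1, Cdh11, Cpe and Dclk1. Genes near 0 that passed no test changed sign. Chga became -0.021 without DKO_EE replicate 5 and Syp 0.091 without DKO_EP replicate 2. Syp became 0.65 with age as a covariate and 0.0099 with age in the 10 animals. Foxa2 became 0.0017 with quantile normalization, 0.019 scaled to the table total, 0.0012 by limma-voom, 0.084 with array weights and 0.49 with age. Insm1 became 0.12 with array weights and 0.82 with age. Without 1 animal they ranged over -0.29 to 0.09 for Syp, -0.10 to 0.20 for Foxa2, -0.20 to 0.24 for Insm1 and -0.02 to 0.27 for Chga. The causes were not tested. No paired analysis was possible because the labels give these animals no shared replicate numbers. At this depth, genes with a few reads limit any fold.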

Other observations

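The genes Ihh, Gli1, Nodal and Lefty1, chosen after their values were seen, were also called between castrated DKO_EE and DKO_EP tumours. Nodal and Lefty1 are not in the BMP and TGF-beta list of 61 genes above. Its count of 0 higher members therefore leaves out Nodal, which was called higher. Other members of the hedgehog pathway were not counted. Ihh, the ligand Indian hedgehog, had log2 values of 2.33, 0, 1.03, 1.77 and 1.92 in DKO_EE and 4.70, 5.78, 4.96, 3.64 and 4.19 in DKO_EP (log2 fold change -3.24, SE 0.50, adjusted p = 0.00446). Gli1, a transcription factor and target of hedgehog signalling, had 0, 0, 0, 1.77 and 0 and 3.42, 3.85, 3.66, 2.75 and 2.84, or 2 reads against 38 (ratio 20.6, 95% counting interval 5.3 to 176, adjusted p = 0.00465). Both were higher still in castrated DKO, at 5.60 to 6.68 and 4.07 to 5.81.

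Nodal, a TGF-beta family ligand of early embryos, had 3.33, 3.81, 4.06, 3.04 and 2.72 in DKO_EE and 0, 0, 0, 1.10 and 1.16 in DKO_EP, or 47 reads against 2 (ratio 21.7, interval 5.7 to 184, adjusted p = 0.00224). Lefty1, which encodes a secreted inhibitor of Nodal, went the other way, with 0, 0, 2.05, 2.21 and 3.0 in DKO_EE and 5.04, 4.27, 5.46, 4.89 and 4.19 in DKO_EP (log2 fold change -3.32, SE 0.57, adjusted p = 0.00899). Nodal, Lefty1 and Gli1 passed under every setting that kept them (leaving out the lowest 25% of genes removed all 3), and Ihh did except when age was added to the 10 animals (adjusted p = 0.0646). All rest on few reads.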
